A study of Homo sapiens with 4 samples.

Results

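The genes described here are 10 human genes of the cytosolic RNA and DNA sensing pathways, followed in RNA-seq of HT8 cells, for which colon cancer is the labelled tissue. They were taken by name. 6 are interferon-inducible sensors (RIGI, IFIH1, DHX58, TLR3, CGAS and ZBP1), and 4 pass the signal on (the adaptors MAVS and STING1, the kinase TBK1 and the transcription factor IRF3). All 10 were found among the 58735 Ensembl gene IDs of the deposited tables, through the GENCODE 29 annotation, which names RIGI and STING1 by their older symbols DDX58 and TMEM173. 9 had a mean level of at least 1 FPKM (reads per kilobase of exon, scaled to the depth of the library) over the 4 libraries and were tested, and ZBP1 was not. The study compares 2 libraries with the genotype label PPDPF knockdown, from the source named HT8-cas1, with 2 libraries labelled control, from the source named HT8. The sources used here do not give how the knockdown was made or what cas1 stands for. Nor do they say that replicates were cultured separately, so a p-value here reflects only how far these libraries spread, which may be technical.

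RIG-I, the product of RIGI, and MDA5, the product of IFIH1, are helicases that bind viral double-stranded RNA in the cytosol and pass the signal to MAVS on mitochondria. LGP2, the product of DHX58, is a relative that lacks the signalling domains of the other two. TLR3 senses double-stranded RNA in endosomes and uses another adaptor, TICAM1 (TRIF). CGAS senses DNA and makes the messenger cGAMP, which binds STING1 on the endoplasmic reticulum. Both adaptors recruit TBK1, which phosphorylates IRF3, and IRF3 then switches on type I and III interferon genes. ZBP1 binds Z-form nucleic acids and can start necroptosis through RIPK3. Interferon raises the transcripts of the sensors through transcription factors that bind the interferon-stimulated response element (ISRE).

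Reads in genes, recovered from the FPKM, came to 17330674 and 17069628 in the libraries labelled knockdown and to 17348315 and 19479906 in the control libraries. PPDPF, the targeted gene, had 281 and 283 FPKM in the libraries labelled knockdown and 237 and 266 FPKM in the control libraries. Both libraries labelled knockdown lay above both controls, as for 35.9% of all genes tested. The difference did not pass the test (log2 fold change 0.16, limma adjusted p = 0.0940), but passed it as a rise in 3 of 12 other fits. PPDPF was thus not lower in the group named after its knockdown. The group is therefore called the libraries labelled knockdown, and rises and falls are of these libraries relative to control. Epithelial markers were present, at summed levels of 3220 and 3197 FPKM in the libraries labelled knockdown and 2682 and 2874 FPKM in control libraries over 11 genes, GPA33 being at most 0.191 FPKM. Of 12 leukocyte markers, which matter here because leukocytes express many sensors, 5 were at 0 in each library, PTPRC, CD3E, MS4A1 and TYROBP among them. The summed level of the 12 was 1.72 and 1.63 FPKM in the libraries labelled knockdown and 2.25 and 2.22 FPKM in control libraries. CD14, the highest, made up much of these sums, at 0.860 and 0.907 FPKM against 1.57 and 1.86 FPKM in control. Of the 12, 3 lay above both controls in both libraries labelled knockdown and 2 lay below. CD14 itself fell (limma adjusted p = 0.0335), a call lost on leaving out any 1 library (up to 0.135), and the part of these markers in the results was not tested. Fibroblast and endothelial lists summed to at most 0.723 and 0.252 FPKM in any library.

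Promoter sequence of the sensors is shown because the group is defined by its response to interferon. RefSeq promoter windows (GRCh38.p14, 250 bases before to 50 bases after the start) were at hand for 5 of the 10 genes, RIGI, IFIH1, TLR3, MAVS and TBK1. They were searched on both strands for the ISRE core (GAAA, any 2 bases, GAAA), the shorter IRF core (AA, any 2 bases, GAAA), which every ISRE core match contains, and the core of the interferon gamma activated site, GAS (TTC, any 3 bases, GAA). The ISRE core occurs in 3.57% of the 35116 promoters of the table, the IRF core in 22.8% and the GAS core in 7.66%. In the stretches below, capitals mark ISRE core matches in IFIH1 and TLR3 and IRF core matches in RIGI.
RIGI, chr9:32526197-32526446, minus strand: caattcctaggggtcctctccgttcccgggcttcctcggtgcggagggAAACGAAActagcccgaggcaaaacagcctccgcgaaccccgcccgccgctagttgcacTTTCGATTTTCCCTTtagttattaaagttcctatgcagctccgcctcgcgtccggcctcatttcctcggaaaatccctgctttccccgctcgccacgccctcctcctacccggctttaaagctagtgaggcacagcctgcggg
IFIH1, chr2:162318685-162318934, minus strand: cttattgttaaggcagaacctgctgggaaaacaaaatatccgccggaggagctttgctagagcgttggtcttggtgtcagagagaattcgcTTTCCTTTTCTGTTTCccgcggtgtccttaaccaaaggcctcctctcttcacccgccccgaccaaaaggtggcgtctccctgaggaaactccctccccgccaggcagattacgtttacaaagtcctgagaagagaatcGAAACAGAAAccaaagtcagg
TLR3, chr4:186068956-186069161, plus strand: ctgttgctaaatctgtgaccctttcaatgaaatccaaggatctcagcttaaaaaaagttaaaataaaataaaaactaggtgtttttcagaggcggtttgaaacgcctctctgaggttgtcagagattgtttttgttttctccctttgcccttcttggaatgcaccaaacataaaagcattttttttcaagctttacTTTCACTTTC
IFIH1 held 3 ISRE core matches, of which 2 overlap, and TLR3 held 1, which spans its RefSeq start site. RIGI held no ISRE core and 3 IRF core matches, of which 2 share 1 base. TLR3 also held 2 GAS core matches, and the other 4 windows held none. The RefSeq start of each of these genes lies within its GENCODE gene, so part of each window before that start is annotated as gene. For RIGI, on the minus strand, the RefSeq start is 32526196 and the GENCODE gene begins at 32526324.

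The windows of the adaptor MAVS and the kinase TBK1 held none of the 3 motifs. Each is shown for the 150 bases before its RefSeq start, as the comparison for the sensors. For TBK1 the RefSeq start is 64452120, but the GENCODE gene begins at 64451880. All printed bases of TBK1 therefore lie within the annotated gene. For MAVS the RefSeq start is 3846834 and the GENCODE gene begins at 3846799. Sequence farther upstream than the windows was not searched.
MAVS, chr20:3846684-3846833, plus strand: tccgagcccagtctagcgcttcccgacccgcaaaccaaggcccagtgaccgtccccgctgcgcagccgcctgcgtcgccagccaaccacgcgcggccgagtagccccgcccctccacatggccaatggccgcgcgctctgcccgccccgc
TBK1, chr12:64451970-64452119, plus strand: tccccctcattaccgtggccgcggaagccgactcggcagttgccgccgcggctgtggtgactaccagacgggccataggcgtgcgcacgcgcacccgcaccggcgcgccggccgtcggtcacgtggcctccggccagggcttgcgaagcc
The GC content of the 300-base window was 71.7% for MAVS and 68.3% for TBK1, against 60.3% for RIGI, 50.7% for IFIH1 and 40.3% for TLR3. A match describes letters only, and no match says only that these letters are not in the window.

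Of the 5 sensors tested, RIGI, IFIH1 and TLR3 fell in the libraries labelled knockdown and none rose, while of the 4 adaptor, kinase and factor genes TBK1 rose and STING1 fell. Over the 9 genes tested this makes 1 that rose, where 16.8% of the 12777 genes tested rose, and 4 that fell, where 13.0% of them fell (limma-trend, Benjamini-Hochberg adjusted p under 0.05). The sensors that rose also numbered 0 with limma at an unadjusted p under 0.05 and with limma-voom on recovered reads. By limma-voom, 2 members rose and 5 fell, where 19.6% of all genes tested rose and 21.2% fell. Fewer members fell without knockdown replicate 1, knockdown replicate 2 or control replicate 2, and more fell without control replicate 1. Without any 1 library TBK1 lost its call. Over all genes tested, fewer rose and fewer fell in each of these fits, which have 1 library left in a group. The median log2 fold change was -0.54 for the 5 sensors and 0.080 for the 4 other genes, beside 0.0011 for all genes tested. Both libraries labelled knockdown lay below both controls for each of the 5 sensors tested and for STING1, as for 33.8% of all genes tested. They lay above both controls for MAVS and TBK1, as for 35.9% of all genes tested, and IRF3 overlapped, so 8 of the 9 did not overlap, as for 69.7% of all genes tested. In these bulk libraries, fewer cells that express a gene and less RNA per cell cannot be told apart.

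**Figure D1:**
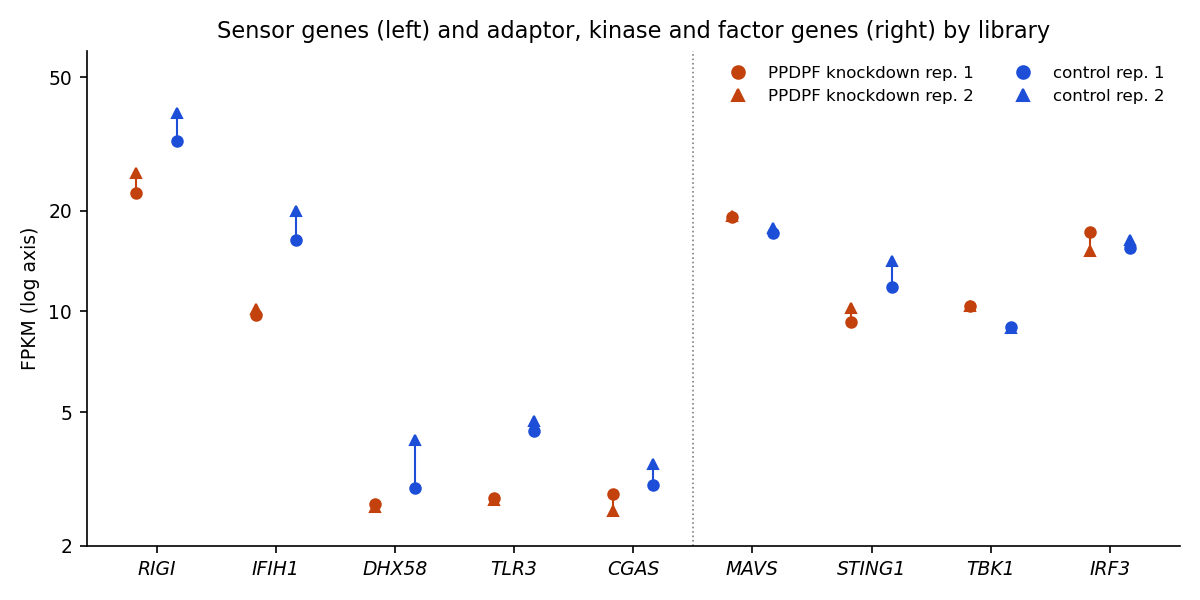
FPKM (log axis) of the 9 genes tested, 1 point per library, with the libraries labelled PPDPF knockdown left of the controls and a line joining the 2 libraries of a group. RIGI, at 22.5 and 25.9 FPKM, lies below its controls at 32.2 and 39.0 FPKM, while TBK1 at 10.4 FPKM in both libraries labelled knockdown lies above its controls at 8.99 and 8.93 FPKM, and ZBP1 is left out because it is at 0 in both libraries labelled knockdown.

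RIGI (ENSG00000107201, GRCh38 chromosome 9, 32455705 to 32526324, minus strand) was the most abundant of the 10 genes in each library. It had 22.5 and 25.9 FPKM in the libraries labelled knockdown and 32.2 and 39.0 FPKM in the control libraries, from 1692, 1911, 2468 and 3338 reads in that order. The groups did not overlap, and the 2 libraries within each group stood apart, replicate 2 being the higher in both. RIGI fell, with means of 24.2 ± 2.38 FPKM in the libraries labelled knockdown and 35.6 ± 4.79 FPKM in control (SD, n = 2 each), to 0.690 of control on the scale of FPKM + 1, which understates changes of low genes (log2 fold change -0.54, SE 0.11, limma adjusted p = 0.0224). The call was lost without knockdown replicate 1 (log2 fold change -0.44, limma adjusted p = 0.0856), without control replicate 2 (-0.40, limma adjusted p = 0.0607), and where genes of low level were kept in the test (limma adjusted p = 0.105). The direction was the same in each of 12 other fits.

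IFIH1, the sensor of long double-stranded RNA, showed the largest fold change of the 9 genes tested. IFIH1 (ENSG00000115267, chromosome 2, 162267079 to 162318703, minus strand) had 9.79 and 10.2 FPKM in the libraries labelled knockdown and 16.4 and 19.95 FPKM in the control libraries. The lower of the controls was well above both libraries labelled knockdown. IFIH1 fell to 9.998 ± 0.295 FPKM in the libraries labelled knockdown, against 18.2 ± 2.51 FPKM in control, or to 0.576 of control (log2 fold change -0.80, SE 0.094, limma adjusted p = 0.00501). The call held in each of 12 other fits, with a limma adjusted p of at most 0.0396.

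DHX58, the third helicase of the family and a regulator of the other two, was the lowest of them and did not pass the test. DHX58 (ENSG00000108771, chromosome 17, 42101404 to 42112733, minus strand) had 2.67 and 2.61 FPKM in the libraries labelled knockdown and 2.97 and 4.13 FPKM in the control libraries, from 177, 170, 201 and 312 reads. The spread between the 2 controls was wider than the gap of the lower control to the libraries labelled knockdown. The log2 fold change was -0.31, with a 95% interval from -0.66 to 0.035 (limma adjusted p = 0.147). It was -0.50 without control replicate 1, where it passed the test (limma adjusted p = 0.0444), and -0.13 without control replicate 2 (limma adjusted p = 0.431), and it also passed with limma-voom on recovered reads (limma adjusted p = 0.0226).

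TLR3, the endosomal sensor, had close replicates and a firm call. TLR3 (ENSG00000164342, chromosome 4, 186069152 to 186088069, plus strand) had 2.78 and 2.75 FPKM in the libraries labelled knockdown and 4.398 and 4.71 FPKM in the control libraries, from 323, 313, 520 and 623 reads. The groups lay apart by several times the spread within either. TLR3 fell to 2.76 ± 0.0269 FPKM in the libraries labelled knockdown, against 4.56 ± 0.224 FPKM in control, or to 0.678 of control (log2 fold change -0.56, SE 0.068, limma adjusted p = 0.00543). The call held in each of 11 other fits, with a limma adjusted p of at most 0.0364.

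CGAS, the DNA sensor, did not pass the test in any of 12 fits. CGAS (ENSG00000164430, chromosome 6, 73413515 to 73452276, minus strand) had 2.84 and 2.54 FPKM in the libraries labelled knockdown and 3.02 and 3.51 FPKM in the control libraries, from 204, 179, 221 and 287 reads. The groups did not overlap, but the higher library labelled knockdown came close to the lower control. The log2 fold change was -0.21, with a 95% interval from -0.45 to 0.036 (limma adjusted p = 0.162, over the other fits 0.0731 to 0.479), so a fall to 0.731 of control lies within the interval.

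ZBP1, the Z-nucleic acid sensor, was close to undetected. ZBP1 (ENSG00000124256, chromosome 20, 57603846 to 57620576, minus strand) had 0 and 0 reads in the libraries labelled knockdown and 2 and 5 reads in the control libraries. The exact 95% Poisson interval of a count of 0 reaches 3.69 reads, or 0.0395 and 0.0403 FPKM in the libraries labelled knockdown. The controls were at 0.0210 and 0.0471 FPKM. The exact 95% Poisson intervals of the control counts, 0.242 to 7.22 and 1.62 to 11.7 reads, cover counting error only. No fold change is given, and a difference was not tested at this depth.

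MAVS, the mitochondrial adaptor of the RNA helicases, was slightly higher in the libraries labelled knockdown without passing the test. MAVS (ENSG00000088888, chromosome 20, 3846799 to 3876123, plus strand) had 19.1 and 19.3 FPKM in the libraries labelled knockdown and 17.1 and 17.7 FPKM in the control libraries, from 3886, 3849, 3543 and 4094 reads. The 2 libraries of each group were close and the groups did not overlap. The log2 fold change was 0.13, with an unadjusted 95% interval from 0.036 to 0.23 (limma adjusted p = 0.0551). It passed the test when only genes with a mean of at least 5 FPKM were kept (limma adjusted p = 0.0415) and with limma-voom (limma adjusted p = 0.0167), and was above 0 in each of 12 other fits.

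STING1, the adaptor of the DNA pathway, was the member of the downstream group that moved with the sensors. STING1 (ENSG00000184584, chromosome 5, 139475534 to 139482935, minus strand) had 9.32 and 10.2 FPKM in the libraries labelled knockdown and 11.8 and 14.2 FPKM in the control libraries. As for RIGI, replicate 2 was the higher in both groups. STING1 fell to 9.78 ± 0.659 FPKM in the libraries labelled knockdown, against 13.0 ± 1.64 FPKM in control, or to 0.772 of control (log2 fold change -0.37, SE 0.094, limma adjusted p = 0.0396). The call was lost without knockdown replicate 1 (limma adjusted p = 0.144), knockdown replicate 2 (limma adjusted p = 0.0774) or control replicate 2 (log2 fold change -0.25, limma adjusted p = 0.104), and where genes of low level were kept (limma adjusted p = 0.145).

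TBK1, the kinase that both adaptors recruit, rose by a small amount with tight replicates. TBK1 (ENSG00000183735, chromosome 12, 64451880 to 64502108, plus strand) had 10.4 FPKM in both libraries labelled knockdown and 8.99 and 8.93 FPKM in the control libraries, from 851, 836, 753 and 836 reads. It rose to 1.14-fold of control (log2 fold change 0.19, SE 0.042, limma adjusted p = 0.0290). The size hardly moved with any library left out, from 0.18 to 0.19, but the call was lost each time (limma adjusted p = 0.106 to 0.110), as it was where genes of low level were kept (limma adjusted p = 0.0575). The lncRNA gene AC135279.3 covers 14.7% of the exon bases of TBK1 on the other strand, and was at most 0.315 FPKM in any library.

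IRF3, the transcription factor at the end of the cascade, did not differ beyond the spread of its libraries. IRF3 (ENSG00000126456, chromosome 19, 49659569 to 49665875, minus strand) had 17.3 and 15.1 FPKM in the libraries labelled knockdown and 15.4 and 16.3 FPKM in the control libraries, which overlapped. The log2 fold change was 0.025, with a 95% interval from -0.16 to 0.21 (limma adjusted p = 0.824), and its sign changed with the setting. The interval leaves room for changes between 0.895 and 1.16-fold. BCL2L12 overlaps 19.3% of the exon bases of IRF3 on the other strand, at 24.1 and 22.7 FPKM in the libraries labelled knockdown and 20.5 and 21.3 FPKM in the control libraries, and without a stated strand setting their reads cannot be told apart.

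**Figure D2:**
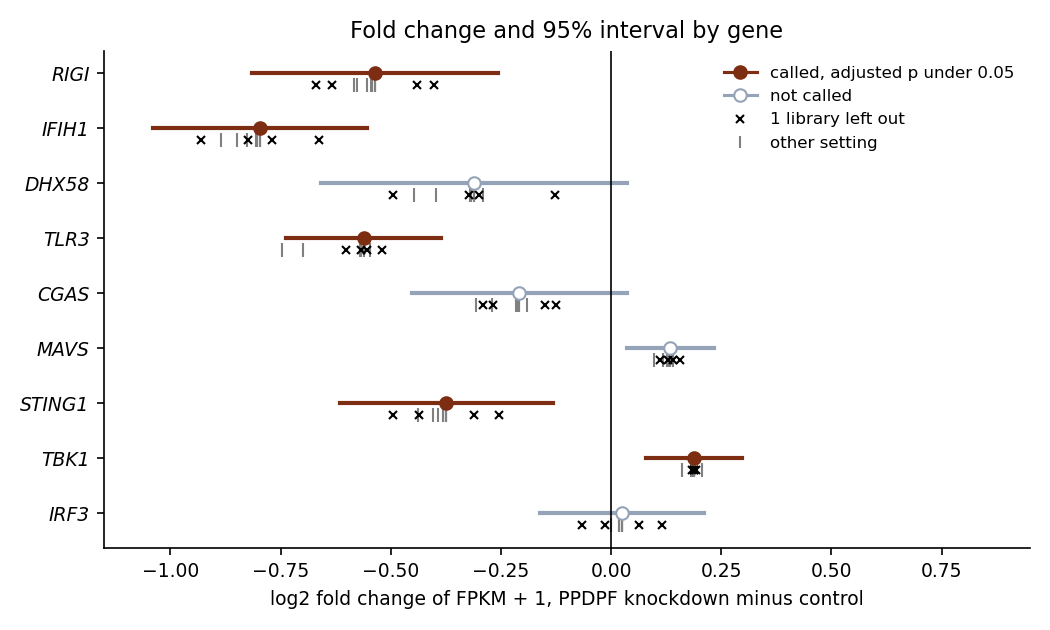
Log2 fold change of FPKM + 1, libraries labelled knockdown minus control, for the 9 genes tested. Circles are estimates with 95% intervals, filled where the adjusted p is under 0.05, and the marks below each show the other settings. IFIH1 at -0.80 and TLR3 at -0.56 stay well below 0 in each setting, while IRF3 at 0.025 scatters around 0.

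The order of levels among the members differed between the groups. Per exon length, the order by mean FPKM in the libraries labelled knockdown was RIGI (24.2), MAVS (19.2), IRF3 (16.2), TBK1 (10.4), IFIH1 (9.998), STING1 (9.78), TLR3 (2.76), CGAS (2.69), DHX58 (2.64) and ZBP1. In control it was RIGI (35.6), IFIH1 (18.2), MAVS (17.4), IRF3 (15.9), STING1 (13.0), TBK1 (8.96), TLR3 (4.56), DHX58 (3.55), CGAS (3.27) and ZBP1. Ranges of the 2 libraries overlapped between IFIH1 and STING1, and among TLR3, CGAS and DHX58 in part, in the libraries labelled knockdown. In control they overlapped between IFIH1 and MAVS and between DHX58 and CGAS. IFIH1 thus stood beside MAVS in control and beside TBK1 and STING1 in the libraries labelled knockdown.

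Ratios of FPKM within a library do not depend on library scaling, and 7 pairs of a gene and its partner were compared. RIGI stood at 1.18 and 1.34 times MAVS in the libraries labelled knockdown and at 1.88 and 2.20 times MAVS in the control libraries. IFIH1 stood at 0.512 and 0.529 times MAVS in the libraries labelled knockdown and at 0.958 and 1.13 times in the control libraries. The sensor to adaptor ratios of these helicases were lower in both libraries labelled knockdown than in either control. TLR3 stood at 0.132 and 0.125 times TICAM1 in the libraries labelled knockdown and at 0.294 and 0.331 times in the control libraries. STING1 stood at 0.900 and 0.990 times TBK1 in the libraries labelled knockdown and at 1.32 and 1.59 times in the control libraries. CGAS stood at 0.305 and 0.248 times STING1 in the libraries labelled knockdown and at 0.255 and 0.248 times in the control libraries, so this ratio overlapped between the groups. The partners MAVS, TICAM1 and TBK1 were themselves higher in both libraries labelled knockdown (log2 fold change 0.13, 0.53 and 0.19), which widens the gaps of these ratios. Single genes did not overlap between the groups for 69.7% of all genes tested, and this share was not computed for pairs. With 2 libraries against 2, an exact two-sided permutation test of such a ratio cannot go below p = 0.333, so the ratios are given without a test.

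**Figure D3:**
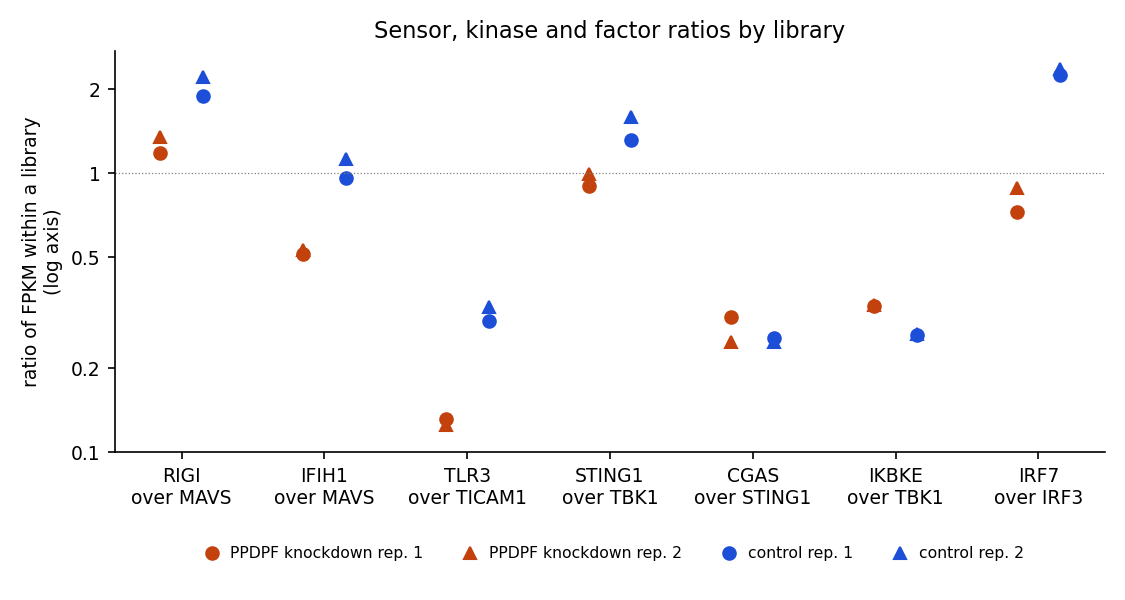
Ratio of FPKM of 2 genes within a library (log axis), with the libraries labelled PPDPF knockdown left of the controls. Each of RIGI, IFIH1, TLR3, STING1 and IRF7 is lower against its partner in the libraries labelled knockdown. IKBKE over TBK1 is higher, at 0.334 and 0.337 against 0.262 and 0.264 in the control libraries. CGAS over STING1 overlaps, at 0.305 and 0.248 against 0.255 and 0.248. Of all single genes tested, 69.7% do not overlap between the groups.

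Chromosomal neighbours of the tested members had medians near 0. The median log2 fold change of the 30 nearest genes tested lay between -0.067 and 0.098 for the 9 members tested. It was 0.098 around RIGI, -0.00081 around IFIH1, -0.067 around TLR3 and 0.052 around STING1, each of which fell. Around ZBP1 it was 0.19, with 11 of 30 neighbours risen and 1 fallen.

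**Figure D4:**
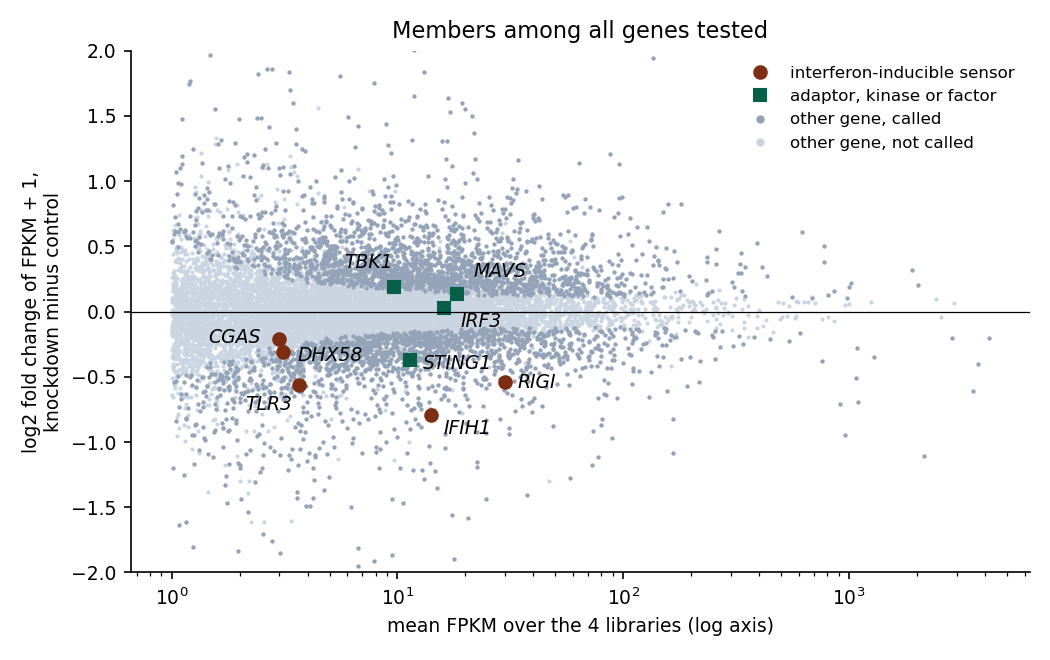
Log2 fold change of FPKM + 1, libraries labelled knockdown minus control, against mean FPKM (log axis) for the 12777 genes tested, with the members labelled; 12 genes lie outside the plotted range of 2 in either direction. Sensors (circles) lie at or below -0.21, and MAVS, IRF3 and TBK1 (squares) at or above 0.025, with STING1 at -0.37.

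TICAM1, the adaptor of TLR3, rose where its receptor fell. In a list of 11 further genes of endosomal sensing, 8 were tested, 2 rose and 3 fell, with a median log2 fold change of 0.027. Of all genes tested, 16.8% rose and 13.0% fell. TICAM1 had 21.1 and 21.99 FPKM in the libraries labelled knockdown and 14.9 and 14.2 FPKM in the control libraries, a rise of 1.45-fold (limma adjusted p = 0.00231). UNC93B1, which carries these receptors to endosomes, fell to 0.792 of control (limma adjusted p = 0.00790), and HSP90B1, a chaperone, fell to 0.769 (limma adjusted p = 0.00602). IRAK1, a kinase of the other endosomal receptors, rose 1.15-fold (limma adjusted p = 0.0119), a call lost without knockdown replicate 1 (limma adjusted p = 0.0638) or control replicate 2 (limma adjusted p = 0.0565). TLR7, TLR8 and TLR9 lay under the filter, at no more than 1 read in any library, but 86.3% of the exon bases of TLR9 are shared with another gene.

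Among 15 partners of MAVS, STING1 and TBK1, 4 rose and 1 fell, where 16.8% of all genes tested rose and 13.0% fell. The median log2 fold change of the partners was 0.081. IRF7, the interferon-inducible relative of IRF3, had 12.5 and 13.3 FPKM in the libraries labelled knockdown and 34.7 and 38.7 FPKM in the control libraries. It fell to 0.370 of control (limma adjusted p = 0.000865), and the 30 genes around it on chromosome 11 had a median of -0.49. IRF7 stood at 0.726 and 0.881 times IRF3 in the libraries labelled knockdown and at 2.25 and 2.37 times in the control libraries, so IRF3 was the more abundant of the pair in the libraries labelled knockdown and IRF7 in control. OPTN, an autophagy receptor that is phosphorylated by TBK1, rose 1.78-fold, with 29.8 and 29.9 FPKM in the libraries labelled knockdown and 15.3 and 17.3 FPKM in the control libraries (limma adjusted p = 0.00185). IRF5, another interferon regulatory factor, rose 1.60-fold (limma adjusted p = 0.00203) in a stretch of chromosome 7 with a median of 0.27, and TRAF3, a ubiquitin ligase that links the adaptors to TBK1, rose 1.29-fold (limma adjusted p = 0.00786). IKBKE, the close relative of TBK1, had 3.45 and 3.48 FPKM in the libraries labelled knockdown and 2.35 and 2.36 FPKM in the control libraries, and rose 1.33-fold (limma adjusted p = 0.0143), a call lost on leaving out any 1 library (limma adjusted p = 0.0600 to 0.0661). TBKBP1, TRAF2, TRAF6, TANK, AZI2, TRADD, IKBKG, CHUK, IKBKB and TOMM70 did not pass the test.

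Cofactors of the RNA helicases moved in both directions. Of 11 tested, 1 rose and 4 fell, with a median of 0.011, where 16.8% of all genes tested rose and 13.0% fell. RIOK3, a kinase that phosphorylates MDA5, rose 1.72-fold, with 39.4 and 36.8 FPKM in the libraries labelled knockdown and 21.3 and 22.1 FPKM in the control libraries (limma adjusted p = 0.00131). PRKRA, the protein PACT that binds double-stranded RNA, fell to 0.781 of control (limma adjusted p = 0.00652), and ZCCHC3, a co-sensor of RNA and DNA, to 0.792 (limma adjusted p = 0.0147, over the fits with a library left out at most 0.0730). TRIM25, a ubiquitin ligase of RIG-I, and DHX15, a helicase, fell by small amounts, with log2 fold changes of -0.20 and -0.13. With 1 library left out, 1 to 2 of the cofactors fell. Of 14 genes that restrain RIG-I or MAVS, 5 rose and 3 fell, with a median of 0.079, but with any 1 library left out 1 rose and 1 fell. TAX1BP1, an autophagy adaptor, rose 1.31-fold (limma adjusted p = 0.00830) and ATG5, of the autophagy conjugation system, 1.19-fold (limma adjusted p = 0.0149, lost on leaving out any 1 library). USP21, a deubiquitinase of RIG-I, fell to 0.758 of control (limma adjusted p = 0.00663).

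Genes that move or feed STING1 also split. The counts below stand beside 16.8% of all genes tested that rose and 13.0% that fell. Of 18 listed, 15 were tested, 6 rose and 5 fell, with a median of 0.095, and with 1 library left out 1 to 3 rose and 2 fell. STIM1, which holds STING1 at the endoplasmic reticulum, rose 1.44-fold (limma adjusted p = 0.00212), and STEEP1, which helps it leave, rose 1.21-fold (limma adjusted p = 0.0106, lost without knockdown replicate 2 or control replicate 2). SLC19A1, an importer of cyclic dinucleotides, fell to 0.752 of control (limma adjusted p = 0.00587). TOLLIP, which stabilises STING1, fell to 0.740 (limma adjusted p = 0.00708), within a stretch of chromosome 11 whose 30 nearest genes had a median of -0.53. Other DNA sensors and inflammasome genes numbered 14, of which 10 were tested, 2 rose and 1 fell, with 0 that fell on leaving out any 1 library. IFI16, a nuclear DNA sensor, lay under the filter with 28 and 22 reads in the libraries labelled knockdown and 82 and 70 reads in the control libraries, and CASP1 had 4 and 1 reads against 16 and 24 in control. AIM2 had 0 reads in each library. HMGB1, a chromatin protein that binds DNA, rose 1.17-fold (limma adjusted p = 0.00755) in a stretch of chromosome 13 with a median of 0.34.

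Nucleases and editors that limit the ligands of the sensors were lower or did not pass the test. Of 15 listed, 12 were tested, 0 rose and 5 fell, where 16.8% of all genes tested rose and 13.0% fell. The median of the list was -0.18. At an unadjusted limma p under 0.05, 1 rose, and with limma-voom 2 rose, where 19.6% of all genes tested rose. SAMHD1, a dNTP hydrolase, had 2.59 and 2.55 FPKM in the libraries labelled knockdown and 5.35 and 5.25 FPKM in the control libraries, and fell to 0.566 of control (limma adjusted p = 0.00189). PNPT1, a mitochondrial exoribonuclease, fell to 0.671 (limma adjusted p = 0.00270), EXO1, a DNA exonuclease, to 0.716 (limma adjusted p = 0.00324) and ADAR, which edits double-stranded RNA, to 0.832 (limma adjusted p = 0.00810). EXO1 lies among genes with a median of -0.31. TREX1, the cytosolic DNA exonuclease, was listed at 0 in each library, and all of its exon bases are shared with ATRIP, so no level is read from it. In the cell death list, RIPK3, the necroptosis kinase that ZBP1 engages, had at most 12 reads in any library, and MLKL, its substrate, fell to 0.813 of control (limma adjusted p = 0.0367), a call lost on leaving out any 1 library.

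Most genes tested of the list of interferons and IRF3 targets fell, while IFNB1 itself was scarce and IFNL1 did not pass the test. Of 14 listed, 9 were tested, 0 rose and 7 fell, where 16.8% of all genes tested rose and 13.0% fell. The median log2 fold change of the list was -0.64. The count that rose was 0 also at an unadjusted limma p under 0.05 and with limma-voom. RSAD2, the antiviral enzyme viperin, had 4.12 and 5.19 FPKM in the libraries labelled knockdown and 13.0 and 15.7 FPKM in the control libraries, and fell to 0.369 of control (limma adjusted p = 0.00250). IFIT1 and IFIT3, which bind viral RNA, fell to 0.564 and 0.632 of control (limma adjusted p = 0.00278 and 0.00405), and ISG15, a ubiquitin-like modifier, to 0.618 (limma adjusted p = 0.00322). CXCL10, a chemokine, did not pass the test, at 0.815 of control (limma adjusted p = 0.0698), but passed it with limma-voom (0.0041), quantile normalization (0.0494) and a mean of at least 5 FPKM (0.0278). IFNB1 had 11 and 6 reads in the libraries labelled knockdown and 16 and 23 reads in the control libraries. IFNL1, a type III interferon, had 3.72 and 4.13 FPKM in the libraries labelled knockdown and 3.32 and 5.22 FPKM in the control libraries, which overlapped (limma adjusted p = 0.782). For each of the 9 genes tested, replicate 2 was above replicate 1 in both groups, as for 26.8% of all genes tested, and of the 5 sensors tested this held for 2. Control replicate 2 alone was above control replicate 1 for 5 of the 5 sensors and 8 of the 9 members tested, as for 50.6% of all genes tested.

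In the interferon receptor and factor list, receptor chains and a kinase rose and STAT2, a transcription factor of the type I interferon signal, fell. Of 13 listed, 10 were tested, 4 rose and 2 fell, with a median of 0.092, where 16.8% of all genes tested rose and 13.0% fell. STAT2 had 8.48 and 9.44 FPKM in the libraries labelled knockdown and 11.9 and 12.9 FPKM in the control libraries, and fell to 0.745 of control (limma adjusted p = 0.0123), a call lost without control replicate 2, at a limma adjusted p of 0.0569. The interferon gamma receptor chains IFNGR2 and IFNGR1 rose 1.54 and 1.35-fold and the kinase JAK1 1.33-fold (limma adjusted p = 0.00169, 0.00758 and 0.00275). IRF9, IFNAR2 and IL10RB lay under the filter, but they share 48.4%, 44.2% and 38.1% of their exon bases with another gene on the same strand, so their low levels cannot be read as low expression.

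**Figure D5:**
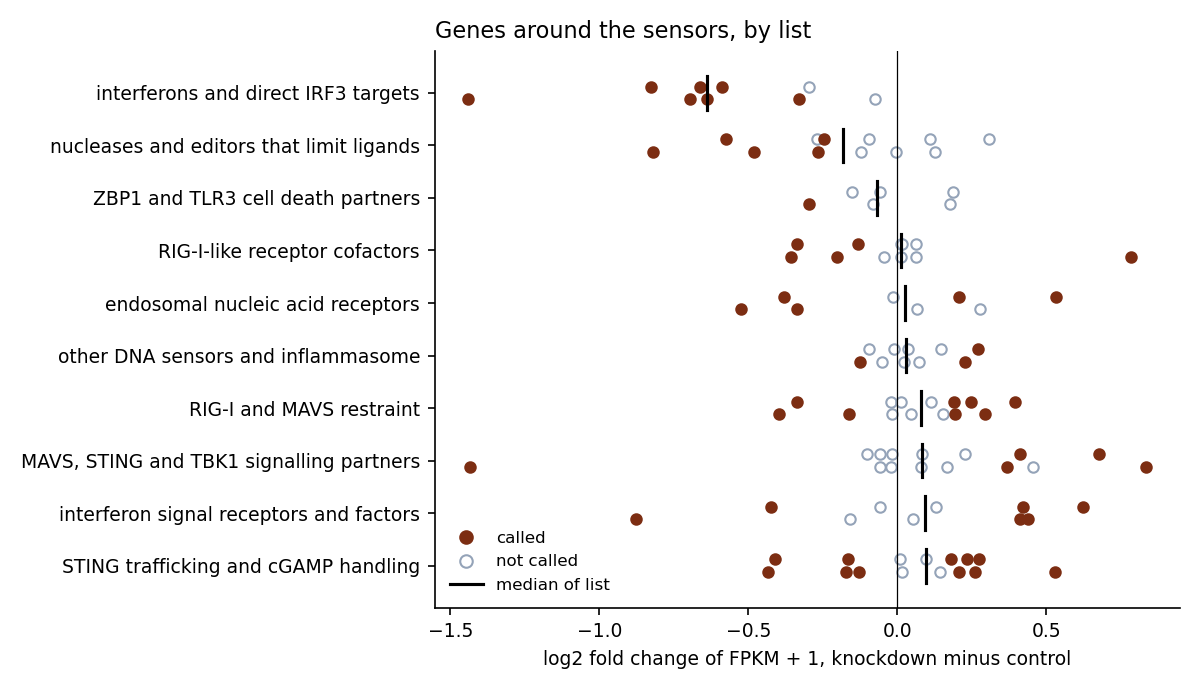
Log2 fold change of FPKM + 1, libraries labelled knockdown minus control, for each tested gene of 10 lists around the sensors, with filled points called at an adjusted p under 0.05 and a bar at the median of each list. The list of interferons and IRF3 targets has a median of -0.64 and its called genes lie below 0, while the lists of signalling partners and of STING trafficking have called genes on both sides.

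The genes outside the members whose levels over the 4 libraries were most like those of IFIH1, RIGI, DHX58 and CGAS were listed by the root mean square distance of log2(FPKM + 1), centred per gene, among 7454 protein-coding genes. For IFIH1 they were PARP9 (0.036), IFIT1 (0.041) and TRIM14 (0.045). For RIGI they were UBE2Q2 (0.049), ACSL1 (0.049) and CXCL11 (0.050). For DHX58 they were CIR1 (0.051), URAD (0.061) and DNAJC16 (0.065), and for CGAS they were ZMPSTE24 (0.0075), CUL7 (0.0080) and CCND1 (0.013). The distances were smallest for CGAS, which was not called, so a small distance does not mark a called change. The ranking rests on 4 libraries only, and shared regulation was not tested.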

How the data were processed

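RNA-seq of 2 libraries labelled PPDPF knockdown and 2 labelled control was analysed. RNA extraction used Trizol, per the labels' protocols. HISAT2 2.0.5 and hg18 are listed in the submitters' processing notes, and the sources used here do not give the counting tool, annotation, strand setting or filters. The authors deposited FPKM per gene in 1 table per library. All 58735 gene IDs matched GENCODE 29, so coordinates are on GRCh38. FPKM multiplied by GENCODE 29 union exon length gave whole reads for 100% of values above 0, within 0.01 of a read. The authors' divisors differed from the summed reads by -0.415%, -0.664%, 1.37% and 0.895% (knockdown 1 and 2, control 1 and 2), a shift common to all genes of a library.

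Genes with a mean of at least 1 FPKM (12777) were tested on log2(FPKM + 1) by limma-trend (limma 3.58.1, R 4.3.3), with group as the only term and 2 residual degrees of freedom. The p-values are two-sided and adjusted by Benjamini-Hochberg over all genes tested, and an adjusted p under 0.05 was a call. The same function was tested on simulated data. Alternatives were a pseudocount of 0.1, no filter, a mean of at least 5 FPKM, quantile and median-of-ratios normalization, scaling to non-mitochondrial reads, a replicate block, each library left out, limma-voom on recovered reads and an adjusted p under 0.01. With 1 library left in a group, it is assumed to vary like the other group.

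The 10 members and all lists were chosen with earlier results of these data known. Named genes were the members, PPDPF, up to 4 tested genes with the smallest p per list, and others named with their list's count. Other genes given with values (such as IKBKE, STAT2, CXCL10, IFNL1, TRIM25, CD14, IFI16 and TREX1) were chosen after their values were seen, as was the IRF core motif. Promoters are from RefSeq (GRCh38.p14). Some genes counted in the lists are not reported here by name. A protein comparison was planned and not run. Figures were drawn with matplotlib 3.10.9 in Python 3.11.15.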

Additional observations from a re-analysis of the deposited data

How the results depend on the processing

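IFIH1 and TLR3 kept their direction and their call in each fit run on them, and lost none at an adjusted p under 0.01. The members that fell numbered 4, and 2 with no filter on low values, 2 at an adjusted p under 0.01, and 2 to 5 with 1 library left out. The members that rose numbered 1 (TBK1), and 0 with no filter and 0 at an adjusted p under 0.01, 0 with the replicate number as a block, 0 whichever library was left out, and 2 with limma-voom and 2 with a mean of at least 5 FPKM, where MAVS joined it. With no filter, RIGI (-0.54), STING1 (-0.37) and TBK1 (0.19) kept their log2 fold change and lost their call, as they did at an adjusted p under 0.01. With 1 library left out, log2 fold changes ranged from -0.67 to -0.40 for RIGI, -0.50 to -0.13 for DHX58, -0.49 to -0.25 for STING1, 0.18 to 0.19 for TBK1 and -0.066 to 0.12 for IRF3. DHX58 passed the test with limma-voom (-0.45). MAVS passed with limma-voom (0.12) and with a mean of at least 5 FPKM (0.13). IRF3 changed sign under quantile normalization (-0.00043). IFNL1, not called, ranged from -0.34 to 0.19 with 1 library left out, the last without control replicate 2. The causes were not tested.

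Over all genes tested, same-numbered libraries did not deviate together (r = -0.0021), and nothing in the labels pairs them. For 9 of the 9 tested interferons and IRF3 targets, replicate 2 was above replicate 1 in both groups, as for 26.8% of all genes tested. With the replicate number as a block, TBK1 lost its call (log2 fold change 0.19, limma adjusted p = 0.0543) and the other called members kept theirs. The limma adjusted p under the block was lower for RIGI (0.00543) and STING1 (0.0162) and higher for IFIH1 (0.00645) and TLR3 (0.0149). Among the other genes named with values, DHX15 (limma adjusted p = 0.0675), MLKL (0.0584) and CD14 lost their call under the block and CXCL10 passed (0.0124).

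Over all genes tested, 2152 rose and 1662 fell. With 1 library left out, 1141 to 1345 rose and 775 to 919 fell. With no filter 1134 rose and 734 fell, at an adjusted p under 0.01 it was 927 and 589, and with limma-voom 2502 rose and 2709 fell. Among the scaling alternatives the median log2 fold change of all genes was farthest from 0 with quantile normalization (-0.0084), and it was -0.0214 with limma-voom. Depth limits ZBP1 and IFNB1, which had at most 5 and 23 reads in any library.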
